A study of Mus musculus with 2 samples.

Results

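Gene-body summits only in WT are peaks of acetylation at lysine 27 of histone H3 (H3K27ac) that were called inside protein-coding genes of wild-type colonic macrophages and not called near the same place in macrophages without Tle4. They were chosen by position, score and the absence of a Tle4cKO call: a WT summit on chromosome 1 to 19 or X with a score of 5 or more, inside a protein-coding gene, over 1 kb from every outer end of such a gene, and with no Tle4cKO summit within 5 kb. The score is the authors' −log10 value per peak. Of 10460 WT summits on these chromosomes, 3622 lay in gene bodies so defined, 1137 of these scored 5 or more, and 777 met the whole rule. Called in WT alone in this sense were 68.3% of gene-body summits scoring 5 or more, 64.3% of gene-end summits and 67.9% of intergenic summits of the same score (66.1% of all), and these shares are set by the rule and support nothing.

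The libraries came from male C57BL/6 mice aged 11.1 weeks, by CUT&Tag, in which an antibody brings a transposase to the marked chromatin. Both groups carried Lyz2-Cre, a recombinase driven by a lysozyme promoter that is active in myeloid cells. The WT mice carried Lyz2-Cre alone, and the Tle4cKO mice were labelled Tle4f/f Lyz2-Cre, so that Tle4 is deleted only in cells where the recombinase has acted. Siglec-F-negative, Ly6C-low, CD64-positive colon cells of 4 mice were pooled per genotype into 1 library, so no difference between genotypes has a replicate or a test. The WT list held 10478 summits and the Tle4cKO list 2352, and read depth is unknown. A summit only in WT is therefore a peak that was not called in the shorter list; H3K27ac below the calling threshold cannot be seen, and genotype, depth and library quality cannot be told apart.

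H3K27ac marks promoters and enhancers that are in use. Enhancers often lie in introns of the gene they act on or of a neighbour, and many genes also hold internal promoters from which shorter transcripts start. Both give an acetylated site inside a gene, and the mark alone does not separate them. Tle4 is a Groucho-family corepressor: it does not bind DNA itself but is brought to it by factors such as Runx, Hes and Tcf/Lef proteins, and it recruits histone deacetylases.

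Part of these summits lay within 1 kb of annotated transcription starts inside the gene. Whether such a summit marks a promoter or an enhancer was not tested, and use of the starts was not measured. RefSeq promoter windows (GRCm38.p6, the assembly behind mm10) gave 32618 starts of protein-coding and long noncoding RNA genes. Starts of 1 chromosome, with 36 of the sites, were not used here. Of the 741 other summits only in WT, 171 (23.1%, exact 95% interval 20.1 to 26.3%) lay within 1 kb of a listed start, against 1.30% of all gene-body bases. The start belonged to the host gene in 148 cases and to a long noncoding RNA gene in the other 23. The host's own internal start lay a median of 4149.5 bp after the gene's outer start, in 70 of the 148 cases it lay at least 5 kb inside, and in 48 (32.4%) it lay under 2 kb from the outer start, the nearest at 84 bp.

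The sequences before these starts ranged from CpG-rich to CpG-poor. CpG-rich promoters are typical of broadly expressed genes, while CpG-poor ones are more often restricted in their use. The first set shows the 250 bases before 3 of the high-scoring starts, with every CpG in capitals. The tRNA methyltransferase gene Trmo had its summit (score 13.5) 76 bp after the start that follows chr4:46389424-46389673 (minus strand). Psma6, which encodes an alpha subunit of the proteasome, had its summit (13.3) 207 bp after the start at the end of chr12:55398575-55398824 (plus strand). In the testis-associated gene Tsga10 the summit (15.7) lay 7 bp before the start, in the window chr1:37865083-37865332 (minus strand). The Tsga10, Trmo and Psma6 windows hold 39, 27 and 20 CpG.
Tsga10: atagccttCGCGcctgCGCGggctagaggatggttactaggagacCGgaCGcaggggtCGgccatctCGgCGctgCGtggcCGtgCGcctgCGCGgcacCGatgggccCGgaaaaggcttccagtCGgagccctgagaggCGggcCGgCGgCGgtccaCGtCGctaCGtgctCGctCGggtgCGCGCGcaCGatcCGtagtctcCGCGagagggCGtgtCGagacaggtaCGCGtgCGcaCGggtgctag
Trmo: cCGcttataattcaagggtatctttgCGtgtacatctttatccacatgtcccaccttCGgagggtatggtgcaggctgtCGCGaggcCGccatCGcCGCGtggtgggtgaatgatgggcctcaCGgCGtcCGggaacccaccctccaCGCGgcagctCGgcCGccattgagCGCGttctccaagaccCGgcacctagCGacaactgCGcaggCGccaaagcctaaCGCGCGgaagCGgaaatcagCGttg
Psma6: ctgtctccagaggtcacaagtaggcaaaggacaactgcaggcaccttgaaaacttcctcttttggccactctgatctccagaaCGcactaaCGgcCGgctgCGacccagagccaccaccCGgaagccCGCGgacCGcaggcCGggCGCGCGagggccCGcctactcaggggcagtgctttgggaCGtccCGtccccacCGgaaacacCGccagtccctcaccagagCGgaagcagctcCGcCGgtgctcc

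The second set shows CpG-poor starts and the start in Nfkb2, and here capitals mark matches to 12 short motifs searched on both strands. Tcf12, an E-protein transcription factor, has 0 CpG in chr9:71896097-71896346 (minus strand), with a C/EBP and an IRF match, and its summit (12.0) lay at the first base of that window. LIM kinase gene Limk1 has 2 CpG in chr5:134678249-134678498 (minus strand), with a RUNX and a MAF match, and its summit (10.4) lay 253 bp after the start. Baz2b, which encodes a bromodomain protein, has 4 CpG and a CRE match in chr2:60125741-60125990 (minus strand), 84173 bp inside the gene (summit 7.86, 215 bp after the start). Casp8, the apoptosis protease caspase-8, has 5 CpG and a RUNX match in chr1:58802252-58802501 (plus strand) (summit 7.0003, 249 bp after the start). Tbxas1, the thromboxane A synthase of macrophages and platelets, has 4 CpG and overlapping MAF and AP-1 matches in chr6:38918736-38918985 (plus strand) (summit 5.78, 186 bp after the start). Nfkb2, which encodes the p100 subunit of NF-kB, has 21 CpG and 2 NF-kB matches in chr19:46304487-46304736 (plus strand), both close to the start at the end of the printed run, and its summit (6.75) lay 158 bp before the start.
Tcf12: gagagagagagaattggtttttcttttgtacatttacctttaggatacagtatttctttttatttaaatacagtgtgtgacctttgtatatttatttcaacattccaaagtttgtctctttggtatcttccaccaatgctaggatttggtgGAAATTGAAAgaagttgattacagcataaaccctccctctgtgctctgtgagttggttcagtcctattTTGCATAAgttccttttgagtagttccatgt
Limk1: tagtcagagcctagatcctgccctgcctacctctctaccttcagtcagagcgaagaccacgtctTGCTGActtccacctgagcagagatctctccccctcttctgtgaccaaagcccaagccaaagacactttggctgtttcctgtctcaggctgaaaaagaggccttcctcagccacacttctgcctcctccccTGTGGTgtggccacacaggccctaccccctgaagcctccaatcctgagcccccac
Baz2b: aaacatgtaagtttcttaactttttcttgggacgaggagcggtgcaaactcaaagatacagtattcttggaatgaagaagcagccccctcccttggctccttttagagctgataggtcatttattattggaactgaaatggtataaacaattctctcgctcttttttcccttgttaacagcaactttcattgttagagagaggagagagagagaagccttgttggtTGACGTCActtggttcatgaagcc
Casp8: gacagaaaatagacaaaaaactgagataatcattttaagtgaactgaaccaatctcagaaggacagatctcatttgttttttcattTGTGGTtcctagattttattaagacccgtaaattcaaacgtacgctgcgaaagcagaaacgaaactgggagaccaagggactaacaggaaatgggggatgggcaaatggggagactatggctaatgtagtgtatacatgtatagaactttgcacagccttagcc
Tbxas1: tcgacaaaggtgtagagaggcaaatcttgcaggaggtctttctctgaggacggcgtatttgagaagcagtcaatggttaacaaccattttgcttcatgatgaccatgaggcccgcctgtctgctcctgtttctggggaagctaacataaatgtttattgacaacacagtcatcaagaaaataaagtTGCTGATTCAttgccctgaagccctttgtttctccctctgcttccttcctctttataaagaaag
Nfkb2: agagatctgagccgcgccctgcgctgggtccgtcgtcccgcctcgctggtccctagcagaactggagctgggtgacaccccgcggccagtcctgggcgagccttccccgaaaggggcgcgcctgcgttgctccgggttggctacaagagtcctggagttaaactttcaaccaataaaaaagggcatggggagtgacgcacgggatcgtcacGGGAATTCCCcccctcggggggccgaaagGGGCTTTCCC

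Summits sat mostly just after the start, on the transcribed side. Of the 171, 117 (68.4%, interval 60.9 to 75.3%) lay after the nearest listed start, 82 of them 100 to 400 bp after it, while 35 of the 171 lay 100 to 400 bp before it. The median position was 145 bp after the start. Among gene-body summits called in both libraries (WT score of 5 or more and a Tle4cKO summit within 500 bp), 59 of 92 (64.1%, 53.5 to 73.9%) lay after the start, at a median of 122 bp. The intervals of both groups overlap. The rule left out sites within 1 kb of an outer gene end. For the 48 host starts under 2 kb inside, positions before the start were thus partly or wholly barred. Summits called in both met the same limit, so the split by side is partly set by the rule.

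**Figure D1:**
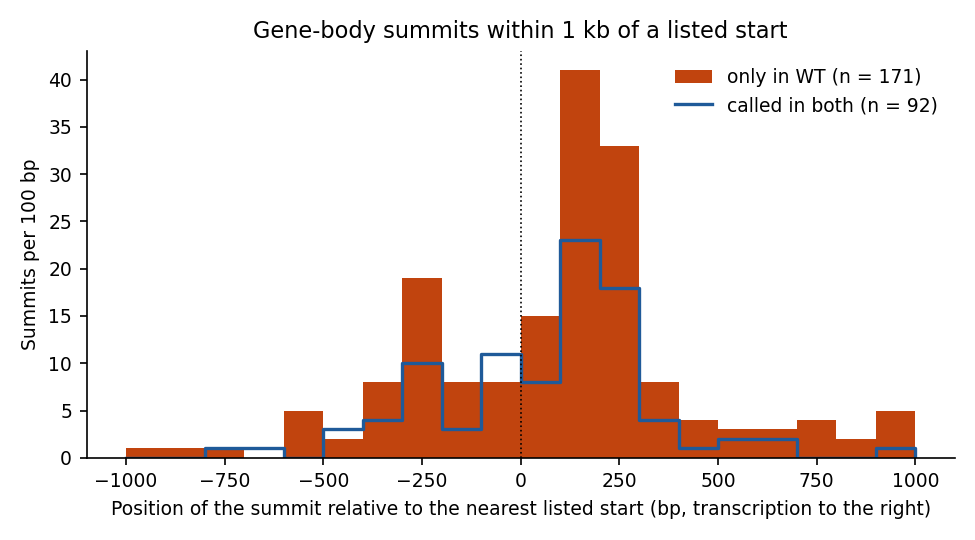
Position of gene-body summits relative to the nearest listed transcription start, in bp with transcription to the right, as summits per 100 bp. Filled bars are the 171 summits only in WT and the line is the 92 summits called in both. Both are highest between 100 and 300 bp after the start, with a smaller rise 200 to 300 bp before it. Positions within 1 kb of an outer gene end were left out by the rule, which bars part of the side before some starts.

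Listed starts within 1 kb of a summit only in WT were rich in CpG compared with unmarked starts inside genes. The 222 starts within 1 kb of such a summit had a median of 21 CpG per 300-base window and 61.3% GC, against 5 CpG and 51.3% GC at the 5950 gene-body starts with no WT summit within 1 kb. Windows with 20 or more CpG made up 56.3% (49.5 to 62.9%) of the first group and 14.1% (13.2 to 15.0%) of the second. The groups are not fully alike: the 222 were not limited to gene bodies, and the nearest lay 84 bp from the outer start. Several starts can also lie beside 1 summit, and the intervals count them as separate. The 119 starts beside summits called in both also had a median of 21 CpG, with 58.0% of windows at 20 or more. At the CpG-poor end, windows with 5 or fewer CpG were 12.2% (8.17 to 17.2%) beside summits only in WT and 5.04% (1.87 to 10.7%) beside summits called in both, intervals that overlap.

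**Figure D2:**
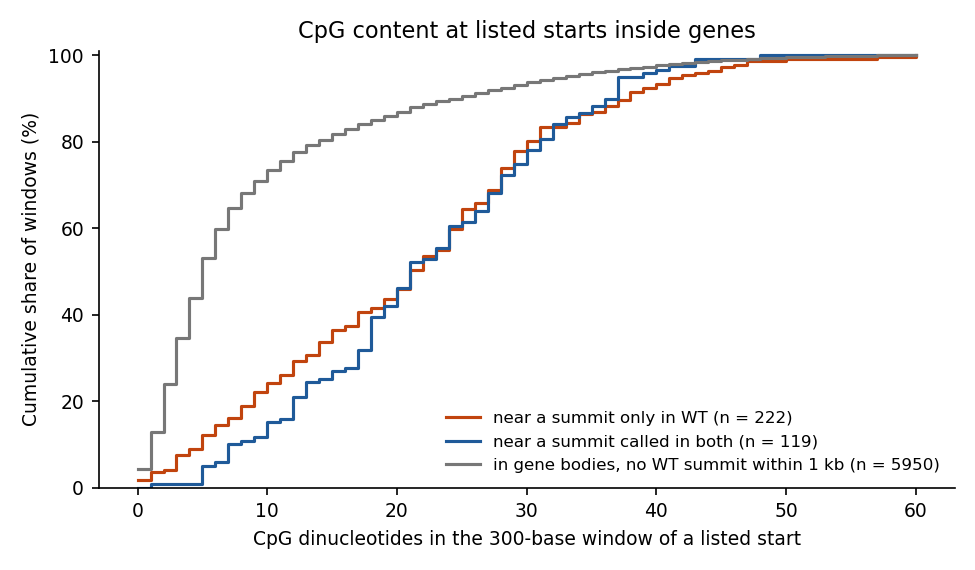
Cumulative share of windows by number of CpG dinucleotides in the 300 bases around a listed start (250 before and 50 after). The curves of starts beside a summit only in WT (n = 222) and beside one called in both (n = 119) run close together, both far to the right of the unmarked gene-body starts (n = 5950).

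The GC box was the most frequent of the 12 motifs in these windows. Spelled GGGCGG and bound by Sp factors, it stood in 60.8% (54.1 to 67.3%) of the 222 windows, in 62.2% of those beside summits called in both, in 25.2% of unmarked gene-body windows and in 35.9% of all 32584 windows. The PU.1 motif GAGGAAGT, bound by the lineage factor of macrophages, was in 3.15% (1.28 to 6.39%) of the 222 and in 3.22% of all windows. AP-1, spelled TGANTCA, was in 6.76% against 7.85% of all windows. NF-kB, taken as GGGA, any 4 bases and CC, was in 26.6% (20.9 to 32.9%) against 20.9%, and in 28.6% of windows beside summits called in both. All windows were poorer in CpG than the 222, with a median of 7 against 21, which limits these comparisons. For partners of Groucho proteins, the RUNX motif TGTGGT was in 14.4% against 16.6% and the TCF motif CTTTGAT in 4.05% against 3.76%. The RBPJ motif TGGGAA, for the Notch pathway, was in 20.3% (15.2 to 26.2%) against 25.4%.

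The remaining motifs gave C/EBP, spelled TTGCNNAA, in 8.11% against 10.9% of all windows and IRF, taken as GAAA, any 2 bases and GAAA, in 2.25% against 3.45%. The E-box CACGTG was in 8.56% against 7.20%, the MAF motif TGCTGA in 16.2% against 19.5% and the CRE motif TGACGTCA in 1.35% against 1.80%. Beside summits called in both, CRE was in 5.04% (1.87 to 10.7%), an interval that overlaps that of the 222 (0.280 to 3.90%). The MAF motif can overlap the AP-1 motif, as in Tbxas1. A match is only a match of letters, in windows that exist only at starts. The sequence of the other summits was not analysed here.

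Scores of the 777 ran from 5.00 to 21.7 with a median of 6.05, and 368 of them were under 6. Gene-body summits called in both had a median WT score of 7.76 and reached 106. Of the 777, 28 scored 10 or more, against 95 of the 324 called in both. The share near a listed start was higher in each higher score class, with intervals that overlap: 19.9% (15.9 to 24.5%) of the 356 scoring 5 to 6, 21.7% of the 207 scoring 6 to 7, 29.6% (22.5 to 37.5%) of the 152 scoring 7 to 10 and 38.5% (20.2 to 59.4%) of the 26 scoring 10 or more. The share was 29.2% (24.2 to 34.6%) among the 315 called in both, which overlaps the interval of the summits only in WT, and 13.2% (11.8 to 14.7%) among 2179 WT-only gene-body summits with lower scores.

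**Figure D3:**
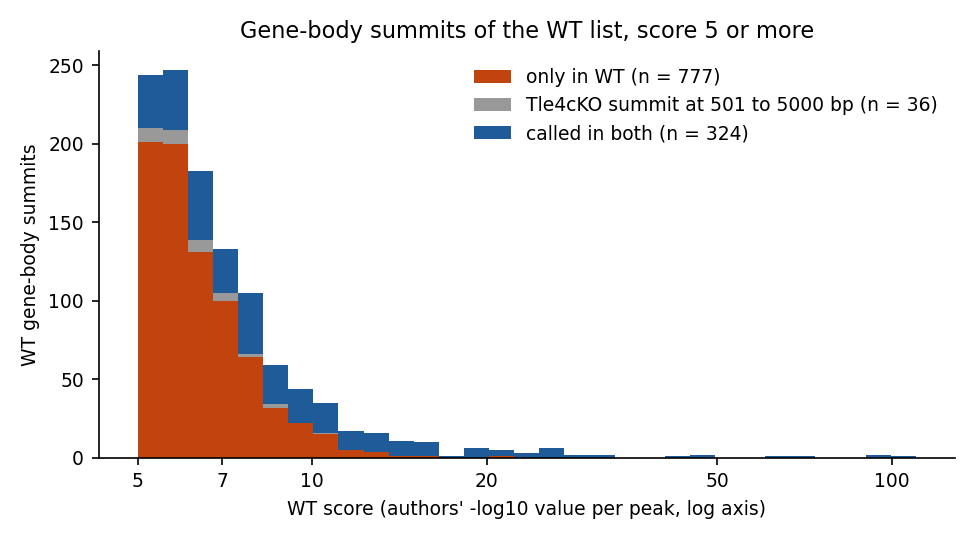
WT gene-body summits scoring 5 or more by score (log axis), stacked by class: 777 only in WT, 36 with a Tle4cKO summit over 500 bp but within 5 kb, and 324 called in both. At a score of 10 or more, 28 summits only in WT stand beside 95 called in both.

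Among gene-body summits scoring 5 or more, 171 of 273 near a listed start (62.6%, 56.6 to 68.4%) and 570 of 816 others (69.9%, 66.6 to 73.0%) had no Tle4cKO summit within 5 kb. At WT scores of 5 to 7, 78.4% (70.9 to 84.7%) of 148 summits near a listed start and 79.7% (76.1 to 82.9%) of 561 others had none. At 7 to 10 the shares were 50.6% (39.8 to 61.3%) of 89 and 62.2% (54.5 to 69.5%) of 172, and at 10 or more 27.8% (14.2 to 45.2%) of 36 and 19.3% (11.4 to 29.4%) of 83. The intervals overlap in each class and over all classes, and the difference was not tested. The rule used this contrast, so the values only describe the lists.

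The highest scores belonged to sites of both kinds. The highest of all (21.7) lay in Mmadhc, a gene of vitamin B12 handling, at position 50296542 of chromosome 2, 268 bp before the start of the long noncoding RNA gene Gm13483. The third lay deep inside the potassium channel gene Kcnq5 (14.7, position 21632872 of chromosome 1), 234473 bp from the nearest gene end and 249316 bp from any listed start. Mrtfa, a coactivator of serum response factor that responds to actin, had a summit of 11.9 at position 81112682 of chromosome 15, 78054 bp inside. App, the amyloid precursor gene, had one of 11.5 at position 84967548 of chromosome 16. Pias1, a SUMO ligase gene, had one of 10.3 at position 62913661 of chromosome 9. None of the summits of Kcnq5, Mrtfa, App and Pias1 was within 1 kb of a listed start, and the nearest Tle4cKO summits lay 741570, 72083, 1853402 and 178881 bp away.

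At the edges of the rule, the lowest scores kept were 5.003 in Got1, 5.020 in Csnk1e and 5.026 in Rapgef6, and the highest left out were 4.996 in both Rapgef2 and Fnip1. The closest Tle4cKO summit to a kept site lay 5361 bp away, at Sfi1, followed by Tnip1 at 5517 bp and Atg4c at 5680 bp. The farthest that excluded a site lay at 2540 bp, at Gsdme, so no gene-body site of this score had its nearest Tle4cKO summit between these distances. Kept sites began 1012 bp from a gene end, at Zfp384, and WT-only sites at 993 bp, at Ppp1r12a and Iba57, were left out.

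Distance to a Tle4cKO call was part of the rule, which kept only sites over 5 kb away. Only 2341 Tle4cKO summits lay on these chromosomes and no background distance was taken, so the distances describe the lists only. The median distance to the nearest Tle4cKO summit was 177 kb, with quartiles of 64.3 and 457 kb, and 27 of the 777 had one within 10 kb. Within the host genes, 127 of 717 (17.7%, 15.0 to 20.7%) held a Tle4cKO summit somewhere else in the gene. This count has no background, since the share over all genes or over genes of like length was not taken. Genes of the sites were long, with a median of 75.9 kb against 17.3 kb for all protein-coding genes. The nearest other WT summit lay at a median of 27.3 kb, and 55 sites (7.08%, 5.38 to 9.11%) had one within 5 kb, a share of 7.10% (4.55 to 10.5%) among summits called in both.

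The 570 sites over 1 kb from listed starts were spread along the gene. In the 463 with 1 host of known strand, 21.6% (17.9 to 25.6%) lay in the first 20% of the gene, 26.1% from 20 to 40%, 18.8% from 40 to 60%, 17.5% from 60 to 80% and 15.98% (12.8 to 19.6%) in the last 20%. Within 10 kb after the outer start lay 93 of the 463 (20.1%, 16.5 to 24.0%), against 14.5% of gene-body bases in genes of known strand and 21 of 180 (11.7%, 7.37 to 17.3%) of the matching summits called in both. Host genes of the 570 had a median length of 91.8 kb, those of the 171 near a start 45.9 kb, and all protein-coding genes 17.3 kb. Longer genes offer more bases for a summit, and list counts below carry that limit.

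The outer start of the same genes gave a measure that the rule did not use. Starts over 7 kb from every site were counted, since a nearer one falls partly under the rule. Of 421 outer starts of host genes, 139 (33.0%, 28.5 to 37.7%) had a WT summit within 1 kb, against 23% (22.4 to 23.7%) of 17085 outer starts of all protein-coding genes. Tle4cKO summits lay at 38 of the 421 (9.03%, 6.47 to 12.2%), against 6.38%. Among host starts marked in WT, 34 of 139 (24.5%, 17.6 to 32.5%) were also marked in Tle4cKO, against 25% (23.6 to 26.4%) of 3936 WT-marked starts of all genes. For hosts of summits called in both it was 15 of 61 (24.6%, 14.5 to 37.3%).

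Where the site lay at an internal start at least 5 kb from the outer one, the outer start of the same gene was marked in WT about as often as over all protein-coding genes. Of 65 such genes, 14 (21.5%, 12.3 to 33.5%) had a WT summit at the outer start, against 23% of all, and 7 of these also a Tle4cKO summit. An example is Rps6ka2, a ribosomal S6 kinase gene, with a summit of 8.31 at position 7169605 of chromosome 17, 510 bp before a start that lies 81144 bp inside the gene. Kdm6a and Tlr1 are not among the 65, since their starts lay nearer the outer one. Kdm6a, which encodes an H3K27 demethylase on the X chromosome, had a site of 6.05, 388 bp before a start 1713 bp inside. Tlr1, the Toll-like receptor that pairs with Tlr2, had one of 5.15, 114 bp after a start 901 bp inside. The Tlr1 site lay 1015 bp from a gene end, at the edge of the rule.

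In all, 717 of 21627 protein-coding genes (3.32%) held at least 1 of the 777 sites, and 57 held more than 1. The 6 genes with 3 or more were Lpp with 4, and Snx29, Creb5, Baz2b, Tbc1d22a and Ston2 with 3 each. Lpp encodes an adhesion protein of the zyxin family and spans 599 kb. Its sites scored 6.32, 6.02, 5.08 and 5.42 at 42.0, 236, 486 and 541 kb after the outer start, while a summit of 13.99 at 190.2 kb was called in Tle4cKO as well (10.3). Creb5, an ATF/CREB transcription factor gene, had sites of 8.04, 6.38 and 5.35 at 103, 209 and 285 kb. WT summits of 7.46 and 4.74 at 173 and 305 kb both had a Tle4cKO summit (3.56 and 2.56). In Creb5 the highest WT summit was thus not called in Tle4cKO and a lower one was.

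Baz2b had sites of 7.86, 7.48 and 5.04 at 84.4, 191 and 249 kb, and a weaker WT summit of 4.05 at 15.5 kb was called in Tle4cKO (3.22). Snx29, a sorting nexin gene, had sites of 5.11, 7.17 and 6.74 at 98.0, 134 and 355 kb, with a summit of 5.27 at 20.7 kb called in both. Tbc1d22a, which encodes a Rab GTPase-activating protein, had sites of 7.18, 5.41 and 6.43 at 10.7, 36.9 and 150 kb, with one of 6.54 at 190 kb called in both. Ston2, an endocytic adaptor gene, had sites of 5.53, 7.20 and 7.62 at 38, 67.2 and 119 kb and no Tle4cKO summit. Of these 6 genes Ston2 alone had no Tle4cKO summit in the gene.

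**Figure D4:**
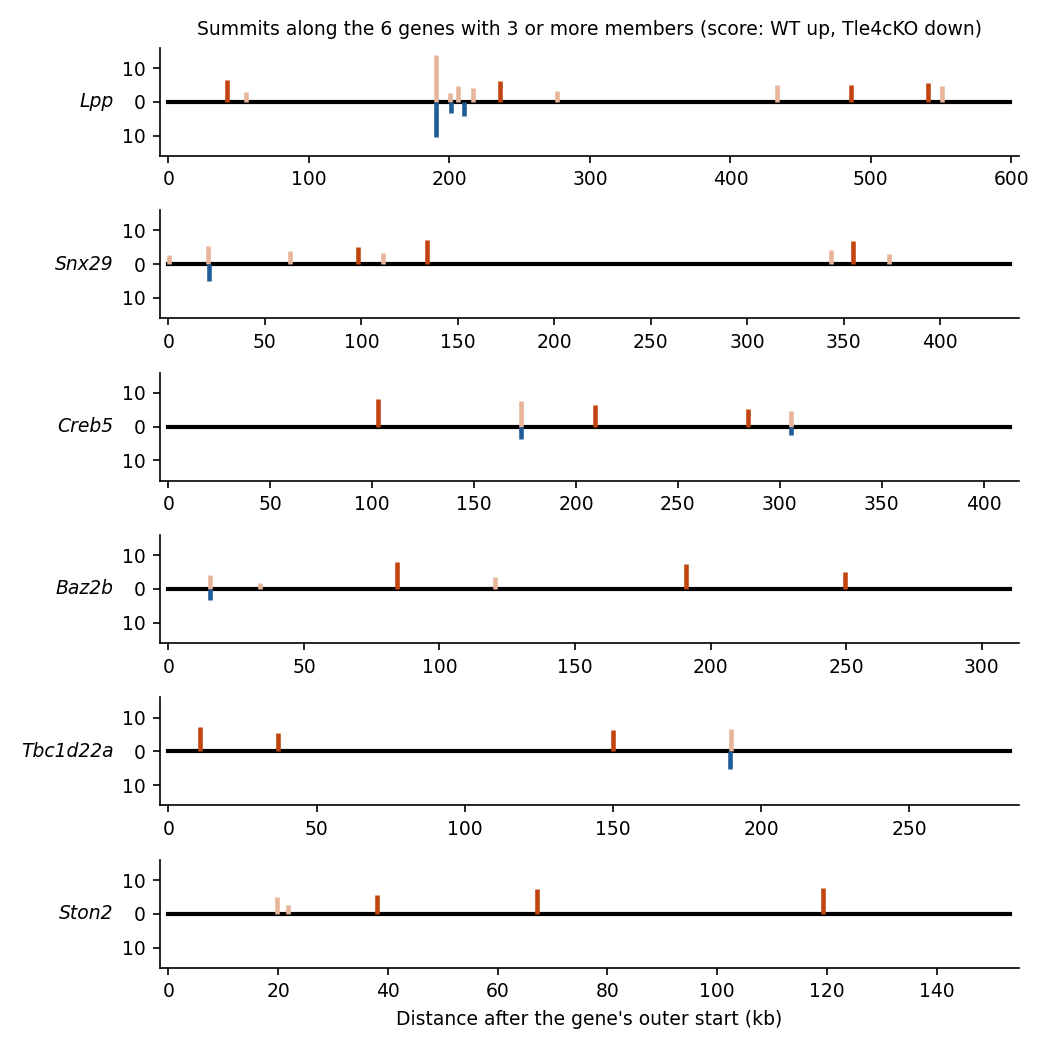
Summits along the 6 genes with 3 or more sites, by distance after the outer start in kb. Bars upward are WT scores (dark for sites only in WT, pale for other WT summits) and bars downward Tle4cKO scores; Lpp, Snx29, Creb5, Baz2b and Tbc1d22a have a Tle4cKO summit and Ston2 has none.

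Host genes were then read against 25 lists of pathways and cell types. The background is 3.32% of protein-coding genes with a site and 0.788 sites per Mb of gene body, and the lists' genes are mostly longer than average. A WT gene-body summit of any score lay in 2530 of all 21627 genes (11.7%). It lay in 17 of 50 NF-kB and Toll-like receptor, 20 of 50 Notch and Wnt and 37 of 104 chromatin genes. For phosphoinositide and Ras, MAP kinase and lysosome genes it was 26 of 67, 14 of 45 and 10 of 44. These shares too lie above that of all genes. Of 50 genes of NF-kB and Toll-like receptor signalling, 6 (12%, 4.53 to 24.3%) held a site: Traf5, Nfkb2, Tnip1, Map3k14, Map3k8 and Tlr1, or 4.22 sites per Mb. Traf5, an adaptor of TNF receptors, had the highest (7.59, position 192091222 of chromosome 1, 1377 bp after the outer start). Tnip1, which restrains NF-kB together with Tnfaip3, had 6.42 at position 54956079 of chromosome 11. The kinase genes Map3k14 (NIK) and Map3k8 (TPL2) had 5.66 and 5.59. A gene-body summit called in both lay in 2 of the 50 genes, and in 320 of all 21627. The list's count was 3 in place of 6 when no Tle4cKO summit was allowed within 20 kb, since Traf5, Tnip1 and Tlr1 had one at 12388, 5517 and 9314 bp.

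Notch and Wnt genes are of interest because Groucho proteins act in both pathways. Of 50, 9 (18%, 8.58 to 31.4%) held a site, with 3.25 sites per Mb. A gene-body summit called in both lay in 0 of the 50. Only 320 of all 21627 genes held one, so a 0 in a list of this size shows nothing. Maml2, a Notch coactivator, had the highest score (8.39, position 13587151 of chromosome 9, 291 kb inside). The receptor gene Notch1 had 5.52 at position 26483541 of chromosome 2, 20.3 kb inside, and the ligand gene Jag2 had 5.32. Among Wnt genes, Gsk3b, a kinase that marks beta-catenin for destruction, had sites of 6.29 and 5.15 at positions 38105716 and 38131799 of chromosome 16. Csnk1a1, a casein kinase of the same destruction complex, had 7.48, and Apc, its scaffold, 5.51. Adam10, the protease that cleaves Notch, Rnf43, which removes Wnt receptors, and Csnk1e had 5.24, 5.09 and 5.02.

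Of 41 genes of Groucho partners and repressive complexes, 4 (9.76%, 2.72 to 23.1%) held a site, or 1.07 per Mb, and none of them was a Tle gene. Tcf7l2, a Wnt transcription factor that binds Groucho proteins, had 6.07 at position 55866155 of chromosome 19, 124 kb inside. The corepressor genes Rcor1 and Ncor1 had 5.91 and 5.48, and the deacetylase gene Hdac9 5.66. For TGF-beta and Smad genes, 3 of 32 (9.38%, 1.98 to 25.02%) held a site, or 1.24 per Mb: Smad4, the common Smad, had 6.26, and Acvr1 and Smad1 had 5.71 and 5.40. The intervals of both lists contain the background of 3.32%.

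Several genes that move the cytoskeleton or carry receptor signals held sites. Elmo1, which activates Rac when dying cells are engulfed, had sites of 10.7 and 5.92 at positions 20313712 and 20458754 of chromosome 13. Srgap2 had 7.21 and 6.92, Vav3 6.73 and 5.89, Dock8 6.17 and 5.36 and Wipf1 5.63 and 5.24, all with 2 sites each. Of 67 phosphoinositide and Ras genes, 9 (13.4%, 6.33 to 24.0%) held a site, or 1.27 per Mb. Plcg2, the phospholipase downstream of Fc and Trem2 receptors, had 10.5 at position 117536444 of chromosome 8, 38.2 kb inside and 562019 bp from a Tle4cKO summit. Rasgrp1, a Ras exchange factor, had 9.99, Pik3cb, a PI3 kinase subunit, 7.76 and Pik3ap1, its adaptor in Toll-like receptor signalling, 7.20 and 5.54.

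In the MAP kinase and Dusp list 7 of 45 genes (15.6%, 6.49 to 29.5%) held a site, or 2.59 per Mb. After Rps6ka2, the highest were Map3k2 (8.15) and Map4k4 (6.40). The phosphatase genes Dusp16 and Dusp22 had 6.15 and 5.99, and the p38 activators Map2k3 and Map2k6 had 6.00 and 5.70. Of 44 genes for AP-1, Maf and immediate early factors, 5 (11.4%, 3.79 to 24.6%) held 8 sites, or 4.68 per Mb: 3 in Creb5, 2 in Atf6 (6.89 and 6.43), an endoplasmic reticulum stress sensor, and 1 each in Crem (6.39), Bach1 (5.99) and Bach2 (5.27).

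Chromatin genes were the largest list, with 14 of 104 (13.5%, 7.56 to 21.6%) holding a site at 1.53 per Mb. They included the remodeller genes Chd9 (8.60), Chd7 (8.16), Chd2 (6.38), Chd8 (6.19) and Chd6 (6.04). The bromodomain gene Brd3, whose protein binds acetylated histones, had 5.69, and the nuclear receptor coactivator genes Ncoa2 and Ncoa1 had 6.27 and 5.80. Besides Kdm6a, the H3K27 demethylase gene Kdm6b had 5.43. Dnmt3a and Kdm2a had 5.86 and 5.44.

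Lysosome and V-ATPase genes held a site in 6 of 44 cases (13.6%, 5.17 to 27.4%), or 4.65 per Mb. Npc1, which exports cholesterol from lysosomes, had 12.1 at position 12224368 of chromosome 18. The protease genes Ctsb and Ctsz had 6.29 and 5.53, Asah1, acid ceramidase, 5.66, Lipa, the acid lipase, 5.25 and Mitf, a factor that drives lysosome genes, 6.01. For the 50 lipid and nuclear receptor genes the count was 5 (10%, 3.33 to 21.8%), or 1.53 per Mb, with the glucocorticoid receptor gene Nr3c1 at 5.87, the lipid droplet gene Plin2 at 5.76, Acaca at 5.61, Rxra at 5.50 and Nceh1 at 5.07. These scores lie below the median of 6.05 over all 777.

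At scores of 5 or more, genes that define macrophages held sites at shares near the background. Of 42 macrophage lineage genes, 2 (4.76%, 0.582 to 16.2%) did: Plcg2 and Mef2c, a transcription factor gene with sites of 5.81 and 5.80. Of 30 resident gut macrophage genes, 0 did (interval up to 11.6%). A gene-body summit called in both lay in 2 of the 42, in 0 of the 30 and in 320 of all 21627 genes. At that share over all genes, a 0 in 30 shows nothing. In the same lists 15 of 42 and 8 of 30 genes had a WT gene-body summit of some score, against 11.7% of all genes (2530 of 21627). With no score minimum, 13 of the 42 and 8 of the 30 held a gene-body summit only in WT. The share of all genes at that setting was not taken, but cannot exceed the 11.7%. Interferon and STAT genes had 2 of 45 (Irf2, a repressor and activator of interferon genes, at 9.07, and Ifnar2 at 5.61), cytokine and receptor genes 1 of 49 (Il1r1, 6.40), antigen presentation genes 2 of 30 (Cd40 at 7.56 and Cd274, PD-L1, at 5.90) and protease genes of the Mmp and Adam families 2 of 30 (Adam9 at 6.87 and Adam10). These shares, from 2.04 to 6.67%, have intervals that contain the background of 3.32%.

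Marker genes of other cells in the colon were also near the background or at 0. No site lay in the 24 epithelial (interval up to 14.2%), 16 neutrophil, 18 mast cell and eosinophil or 15 enteric glia and neuron genes. Dendritic cell genes had 1 of 18, Tcf4, an E-protein of plasmacytoid dendritic cells, with 12.5. T cell genes had 1 of 22 (Cd247, 5.93), and B and plasma cell genes 1 of 20 (Bach2, which is also in the AP-1 list). Fibroblast, muscle and endothelial genes had 2 of 24, the endothelial cadherin gene Cdh5 at 7.48 and Pecam1 at 5.69, both adhesion genes of endothelium. A summit shows that chromatin was acetylated, in cells of any kind in the sort, and the part of other cells in these sites was not tested.

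**Figure D5:**
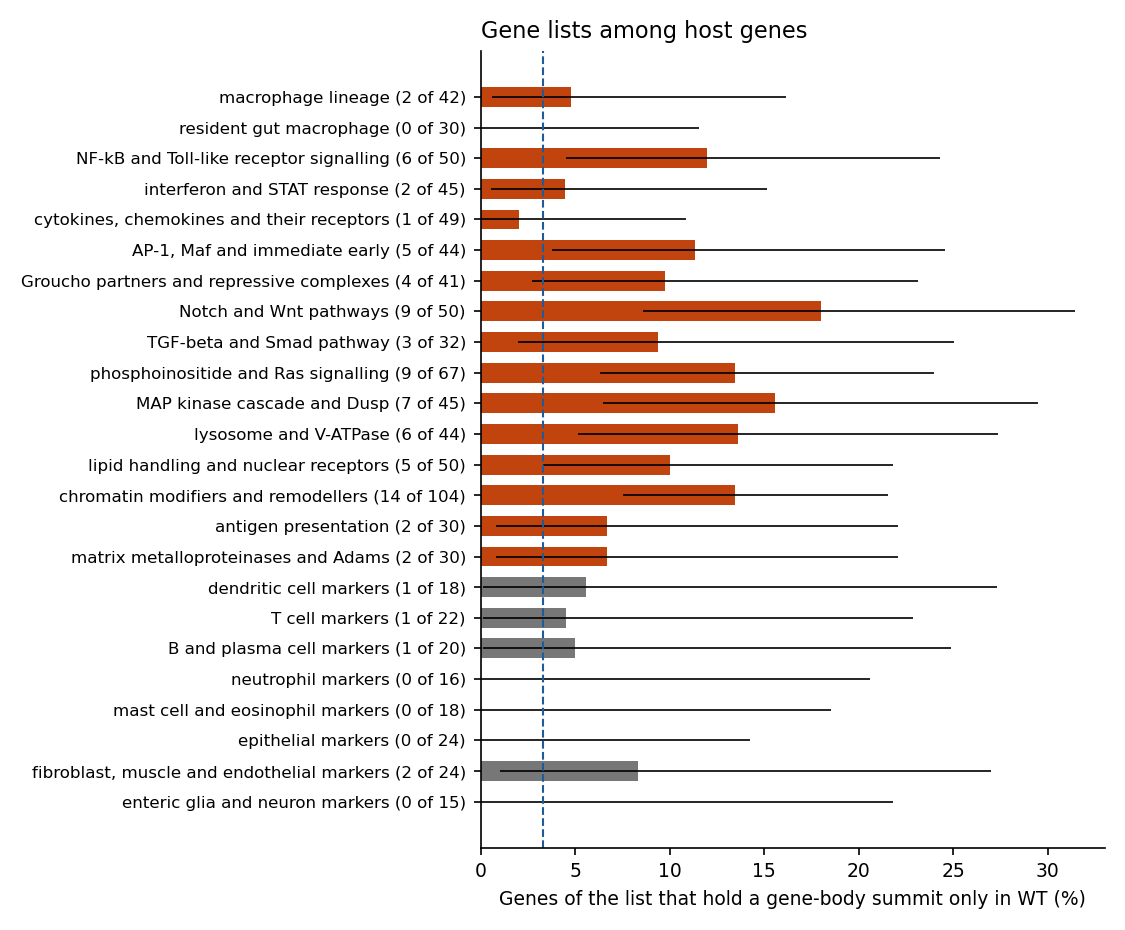
Share of the genes of each list shown that hold a gene-body summit only in WT, with exact 95% intervals as lines and counts beside each name; grey bars are markers of other cell types. The dashed line is the share of all protein-coding genes, 3.32%. Intervals of the NF-kB, AP-1, Notch and Wnt, phosphoinositide, MAP kinase, lysosome, lipid and chromatin lists lie to the right of it. Those of all other lists shown contain it, among them the interferon, cytokine and TGF-beta lists. Gene length was not taken into account.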

How the data were processed

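Each library has 1 deposited summit list of single-base positions with a score. The score deposited by the authors is taken as a −log10 p-value or q-value, because the lowest values (1.35 and 1.37) lie just above 1.30, the −log10 of 0.05. The submitters' processing notes name cutadapt 1.14, Bowtie2 2.2.5 and mm10; for the peak caller, its settings and read depth, no information is given in the sources used here. Such a score grows with depth and was used only to rank or filter summits within a list.

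Outer gene ends came from a RefSeq table and starts and strands from RefSeq promoter windows, both GRCm38.p6; 17273 of 21627 protein-coding genes had a strand. Starts on chromosome 18 and exons were not used, and the planned windows of sequence around each summit were not made, since no genome was used here. Shares carry exact Clopper-Pearson 95% intervals that cover counting error only. No test between genotypes was possible with 1 library each. Of 940 genes in the 25 lists, 938 were matched. Results of 1 list and of some genes are not reported here. Members and lists were chosen with earlier results of these data known. Genes were named from the highest scores, the genes with several sites, the lists and the edges of the rule; the analysis at starts and the sequences printed were chosen after the data were seen. The rule was tested on simulated data. Python 3.11.15, pandas 2.3.3 and SciPy 1.17.1 were used.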

Additional observations from a re-analysis of the deposited data

How the results depend on the processing

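The number of sites moved mainly with the score minimum: 193 at a score of at least 7, 28 at 10 and 3019 with no minimum, in place of 777. The share of gene-body summits that were called only in WT was 48.4%, 22.6% and 83.4% under these settings, in place of 68.3%, and 71.5% or 63.1% when the Tle4cKO summit had to be over 500 bp or 20 kb away. Gene ends of 2 or 5 kb, autosomes alone and merged summits left both values within 1.5 times or within the main interval. Host genes had a WT summit at the outer start in 27.3% of cases with a window of 500 bp. The share over all genes was not taken at that window, so the 23% found with 1 kb is no background for it. Listed genes that held a site numbered 230 with no score minimum, in place of 90. With no Tle4cKO summit allowed within 20 kb, the NF-kB, interferon and cytokine lists had 3, 1 and 0 genes in place of 6, 2 and 1. The share of sites near a listed start, with alternatives chosen after seeing the data, was 19.7% with a window of 500 bp, 27.1% with 2 kb, 30.9% at a score of at least 7 and 14.9% over 5 kb from gene ends. The wider sequence window was not run, since it needs a genome. No paired analysis was possible because each genotype has 1 library. Depth is unknown and limits what the absence of a call can show.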

Other observations

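Sites were unevenly spread over chromosomes. Their density was 0.788 per Mb of gene body over all chromosomes, with the highest value on chromosome 19 (39 sites, 1.47 per Mb) and on chromosome 11 (61 sites, 1.16 per Mb). These chromosomes held 51 and 96 WT gene-body summits scoring 5 or more, of which 76.5% and 63.5% were only in WT, against 68.3% over all chromosomes. The X chromosome held 7 sites in 43.8 Mb of gene body, or 0.160 per Mb. Of all WT gene-body summits scoring 5 or more, the X chromosome held 13.

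Long noncoding RNA genes had an outer end within 1 kb of 48 of the 777 sites (6.18%, 4.59 to 8.11%), against 14 of 324 summits called in both (4.32%, 2.38 to 7.14%). A microRNA gene had an end within 1 kb of 1 site, in Epc1.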
